A study of Mus musculus with 6 samples.

Results

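The Cyp4a and Cyp4f fatty acid hydroxylases and their relative Cyp4v3 were followed on arrays of mouse liver RNA, with and without the sirtuin SIRT7. Of 9 listed genes, 7 had a probe set annotated with their symbol alone (Cyp4a12a, Cyp4a14, Cyp4a31, Cyp4f13, Cyp4f14, Cyp4f15 and Cyp4v3), out of 12393 genes with such a probe set on the array. Cyp4a10 was named only by a probe set that it shares with Cyp4a31, which is given apart, and Cyp4a12b was named by 0 probe sets. Where a gene had several probe sets, the one with the highest mean over the 6 arrays was used and the other is given beside it. The genes were chosen by the log2 difference between knockout and wild-type livers on these same arrays, so their differences are given as a description, without a test.

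These enzymes are cytochromes P450 that place a hydroxyl group on the terminal (omega) carbon of fatty acids and eicosanoids. The products are oxidised further to dicarboxylic acids, which peroxisomes shorten. In mouse liver, Cyp4a10 and Cyp4a14 are classic target genes of the fatty acid receptor PPARA, which binds DNA with RXRA, and they respond to fasting and to peroxisome proliferators. Cyp4a12a is a male-typical enzyme with high activity on arachidonic acid, and the Cyp4f enzymes act on leukotrienes and long-chain fatty acids.

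The study measured mRNA in 3 wild-type livers and 3 livers carrying the knock-out Sirt7 allele, each on its own 1-colour Affymetrix array, and its title links SIRT7, a nuclear sirtuin, to MYC activity. All samples are said to have had the same treatment. The labels give no strain, age, sex, diet or hour of dissection, and they do not say how the Sirt7 allele was made or whether each liver came from a different animal. P-values therefore reflect only sample-to-sample spread, part of which may be technical. Livers are numbered by the replicate number in their labels. Values are log2 expression values per probe set, so that a difference of 1 is a 2-fold difference. A log2 value of 4 was taken as the lower limit of genes tested, since the background correction pulls unexpressed transcripts toward lower values.

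Sirt7 itself stood at 9.85, 9.80 and 9.57 in wild-type livers 1 to 3 and at 2.38, 3.10 and 2.85 in knockout livers 1 to 3. Array medians lay between 5.69 and 5.77. The hepatocyte genes Alb (mean ± SD over 3 livers, 12.88 ± 0.073 against 12.65 ± 0.39 without SIRT7) and Ttr were high in all 6 livers, and so was the Y-linked gene Eif2s3y (11.03 ± 0.16 and 11.03 ± 0.38). The mean level of 9 hepatocyte markers lay between 12.78 and 12.94 in wild-type and between 12.59 and 12.98 in knockout livers. Over 10 Kupffer cell markers it lay between 8.55 and 8.62 and between 8.65 and 9.04. The adipocyte markers Adipoq and Lep and the pancreatic markers Cpa1, Ctrb1 and Prss2 were under 4 in every liver, while other genes of those lists (Fabp4, Cela1 and Cela2a) were above it on average. Of the Kupffer markers, 8 of 10 differences were above 0 (45.4% of all tested genes were) and 2 under 0, with a median of 0.19. C1qa (1.05) and Cd68 (0.50) were higher in every knockout liver than in every wild-type liver, as were 4.27% of all tested genes. For C1qa the gap was narrow, with 7.254 in knockout liver 3 and 7.25 in wild-type liver 3. Csf1r differed by -0.63, with -0.39 and 0.057 on its other probe sets. The median was 0.59 over 2 tested erythroid markers (Slc4a1 at 1.32 and Alas2 at -0.14) and 0.57 over 2 tested neutrophil markers. The 3 tested cholangiocyte markers differed by -0.91 (Sox9), 0.58 (Krt19) and -0.15 (Krt7), with a median of -0.15. The median was 0.11 over 8 endothelial markers (5 above 0, 3 under 0). Of these, Pecam1, with a wild-type mean of 3.97, passed the limit of 4 only through the knockout livers. It was -0.12 over 8 stellate markers (3 above 0, 5 under 0) and 0.05 over 7 tested lymphocyte markers (4 above 0, 3 under 0). The median deviation of the lymphocyte markers was -0.72 in knockout liver 1 and 0.70 in knockout liver 2. The part of these markers in the results was not tested. In whole tissue, fewer cells of a type and less RNA per cell cannot be told apart.

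The widest differences in the family belonged to the Cyp4a14, Cyp4a10 and Cyp4a31 signals, which were low in wild-type livers 1 and 2 and high in the knockout livers, with wild-type liver 3 on the knockout side or close to it. Cyp4a12a, which lies in the same gene cluster, stayed within 0.14 log2 units over all 6 livers. The 3 listed Cyp4f genes differed by at most 0.27 in either direction, and Cyp4v3 was lower in knockout livers by 0.44.

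Cyp4a14, an omega-hydroxylase that is among the most inducible PPARA targets of mouse liver, had log2 values of 5.83, 7.69 and 11.37 in wild-type livers 1 to 3. In knockout livers 1 to 3 it had 12.45, 12.14 and 11.004. The wild-type livers thus spanned nearly the whole scale of this gene, and wild-type liver 3 lay above knockout liver 3, so the groups overlapped. The wild-type mean was 8.30 ± 2.82 and the knockout mean 11.86 ± 0.76 (SD, n = 3 each). The difference was 3.57 (SE 1.16), or 11.8-fold between the means of the log2 values. Wild-type replicates 1 and 3 were 5.54 log2 units apart, a 46.4-fold difference between livers of the same genotype.

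That spread ranked 2 of 8343 tested genes by the range over the wild-type livers, against a median range of 0.44 over all tested genes. Over the knockout livers Cyp4a14 ranged by 1.44 and ranked 321, where the median range was 0.53. Without wild-type liver 3 the difference was 5.10, and without wild-type liver 1 it was 2.33.

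The probe set annotated to both Cyp4a10 and Cyp4a31 had values of 9.16, 10.37 and 11.61 in wild-type livers 1 to 3 and 12.12, 12.04 and 11.41 in knockout livers 1 to 3. Its order over the 6 livers was that of Cyp4a14, and again wild-type liver 3 was above knockout liver 3. The means were 10.38 ± 1.22 and 11.86 ± 0.39 (SD, n = 3 each), a difference of 1.48 (SE 0.55, from the fit over all probe sets). It was 0.87 without wild-type liver 1. Cyp4a10 and Cyp4a31 are close paralogs, and their shares of this signal cannot be told apart.

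Cyp4a31, a paralog next to Cyp4a10, was at 2.35, 3.14 and 4.48 in wild-type livers 1 to 3 and at 5.92, 6.88 and 5.03 in knockout livers 1 to 3 on its own probe set. Here the groups did not overlap. The means were 3.32 ± 1.08 and 5.94 ± 0.92 (SD, n = 3 each), a difference of 2.62 (SE 0.58). Its mean over the 6 arrays was 4.63, so it passed the limit of 4 only through the knockout livers. The wild-type values are near the lower end of the scale, where log2 differences are not proportional to RNA amounts.

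Cyp4a12a, the male-typical arachidonic acid hydroxylase, had values of 11.80, 11.82 and 11.83 in wild-type livers 1 to 3. In knockout livers 1 to 3 it had 11.72, 11.68 and 11.80. Every knockout value lay under every wild-type value, but by very little. The means were 11.82 ± 0.011 and 11.73 ± 0.060 (SD, n = 3 each), and the difference of -0.081 was smaller than its standard error of 0.17. By its range over wild-type livers (0.022) it ranked 8324 of 8343 genes, at the opposite end from Cyp4a14. Cyp4a12b is a near-identical neighbour, so that this probe set may also take up its transcripts. The deposited values carry no flag for saturated probes.

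**Figure D1:**
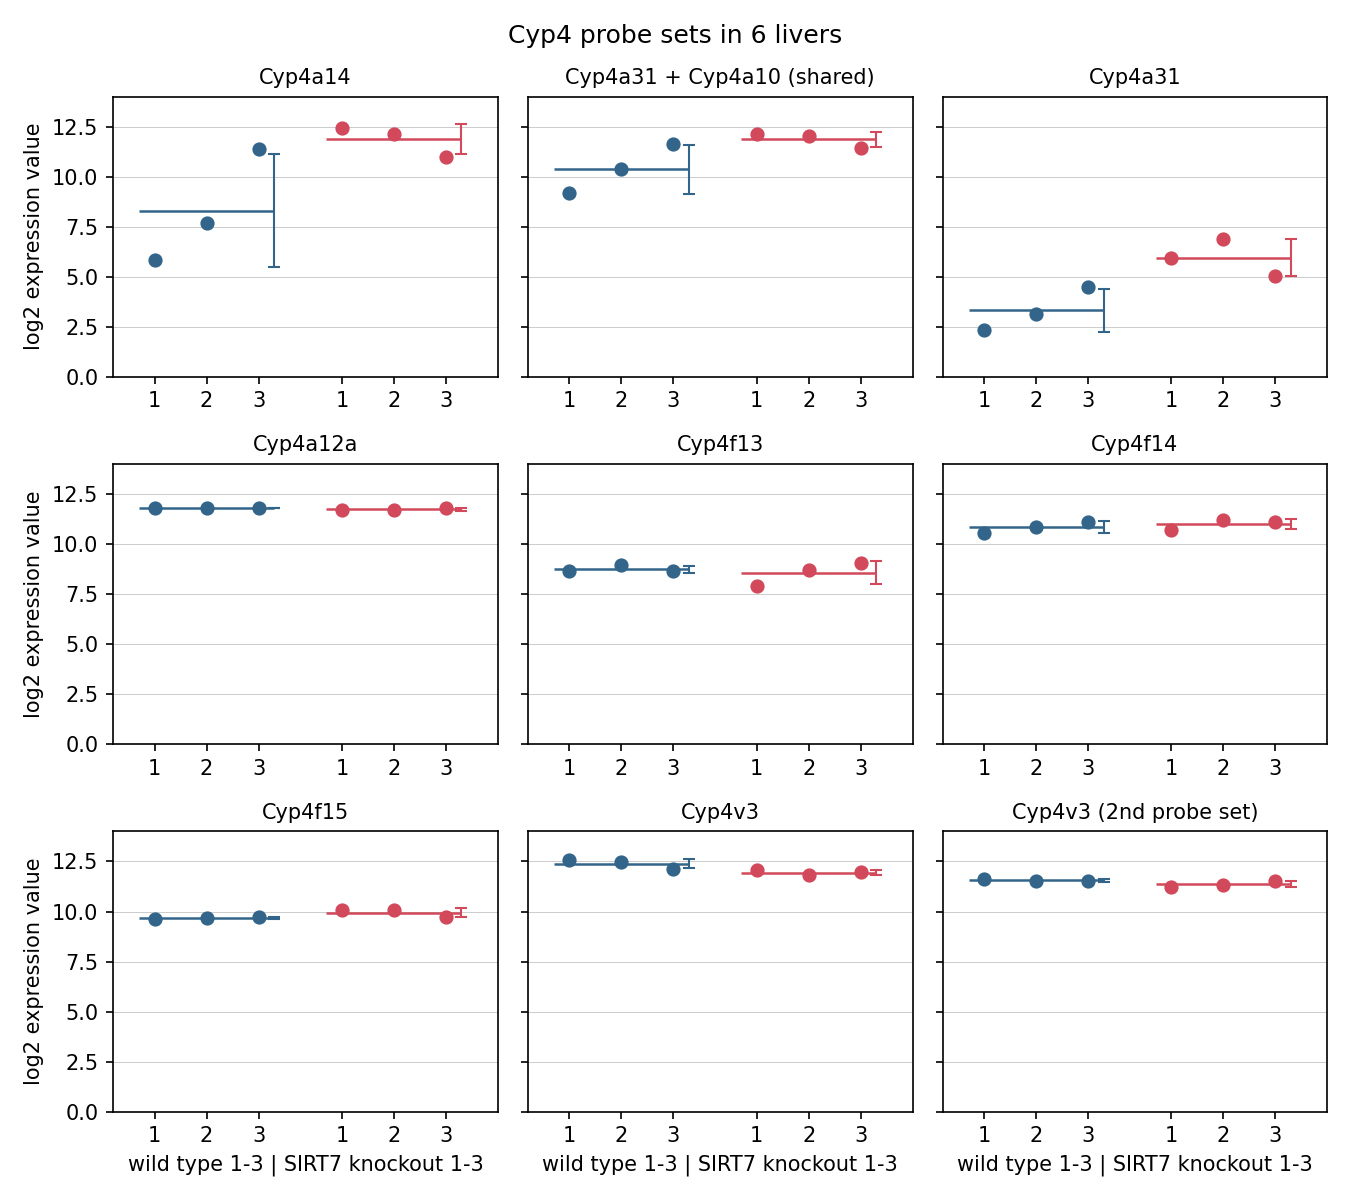
Log2 expression values (vertical axis) of the member probe sets and of the probe set shared by Cyp4a10 and Cyp4a31 in wild-type livers 1 to 3 (blue) and SIRT7 knockout livers 1 to 3 (red). Points are livers, horizontal lines are group means and the bars at their ends are SD over 3 livers. Cyp4a14 runs from 5.83 to 11.37 among wild-type livers, while Cyp4a12a is flat at 11.68 to 11.83.

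The 3 listed Cyp4f genes, all on chromosome 17, were well above the limit of 4 in every liver. Cyp4f14, a hydroxylase of leukotriene B4 in mouse liver, was at 10.57, 10.86 and 11.13 in wild-type livers 1 to 3 and at 10.71, 11.19 and 11.11 in knockout livers 1 to 3. The groups overlapped, and the difference of 0.15 was within its standard error of 0.22. Without wild-type liver 1 it was 0.012, and without knockout liver 1 it was 0.30. Cyp4f15 was at 9.62, 9.69 and 9.73 in wild-type livers and at 10.07, 10.07 and 9.71 in knockout livers. Knockout replicates 1 and 2 were above all wild-type livers and knockout liver 3 was among them, which gave a difference of 0.27 (SE 0.19).

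Cyp4f13 varied more among knockout than among wild-type livers. It was at 8.64, 8.95 and 8.65 in wild-type livers 1 to 3 and at 7.93, 8.72 and 9.08 in knockout livers 1 to 3. The difference of -0.17 (SE 0.29) turned to 0.15 without knockout liver 1.

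Core promoters are shown because the 3 listed Cyp4f genes have a CCAAT box in common at this place, noticed after the sequences were seen. Of the 9 listed genes, 4 were found in the RefSeq promoter table of build GRCm38.p6; Cyp4a10, Cyp4a12a, Cyp4a12b, Cyp4a14 and Cyp4a31 were not. The sequences are the 120 bases before the annotated start, 5′ to 3′ on the strand of the gene, with capitals marking a CCAAT box, which reads ATTGG on this strand. Cyp4f14 has 4 windows in that table, and the one farthest upstream is printed.
Cyp4f13, chr17:32947362-32947481, minus strand: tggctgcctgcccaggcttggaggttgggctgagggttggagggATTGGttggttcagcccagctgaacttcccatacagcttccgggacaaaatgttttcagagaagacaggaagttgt
Cyp4f14, chr17:32917357-32917476, minus strand: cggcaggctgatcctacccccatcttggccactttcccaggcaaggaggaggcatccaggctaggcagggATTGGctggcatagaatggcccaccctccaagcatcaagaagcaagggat
Cyp4f15, chr17:32685539-32685658, plus strand: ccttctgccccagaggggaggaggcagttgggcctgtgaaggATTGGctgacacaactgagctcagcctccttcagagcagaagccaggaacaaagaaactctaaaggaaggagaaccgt
Cyp4v3, chr8:45333164-45333283, minus strand: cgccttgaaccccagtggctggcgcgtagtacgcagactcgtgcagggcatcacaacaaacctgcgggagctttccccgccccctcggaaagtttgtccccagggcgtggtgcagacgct

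The CCAAT box begins 76, 50 and 78 bases before the start in Cyp4f13, Cyp4f14 and Cyp4f15. Searched on both strands, CCAAT was found in 21.3% of all 32851 windows of this length. The longer word GGATTGG, which contains the reverse complement of CCAAT and was chosen after the sequences were seen, occurs in all 3 Cyp4f windows and in 2.45% of all windows. The Cyp4v3 window holds neither. The 3 Cyp4f genes belong to the same family and lie on the same chromosome, so their windows are not independent. Nothing is read from their share beside that of all windows. The TATA box word TATAAA and the nuclear receptor word AGGTCA, also searched on both strands, were in 0 of the 4 windows, against 6.34% and 6.91% of all windows. No searched word overlaps another except CCAAT within GGATTGG. Such matches describe letters in these windows and are not binding sites.

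Cyp4v3, which hydroxylates medium-chain and polyunsaturated fatty acids, was at 12.55, 12.49 and 12.12 in wild-type livers 1 to 3 and at 12.05, 11.81 and 11.98 in knockout livers 1 to 3. The groups did not overlap. The difference was -0.44 (SE 0.20). The other Cyp4v3 probe set was at 11.65, 11.50 and 11.52 in wild-type and 11.25, 11.33 and 11.53 in knockout livers. There knockout liver 3 lay among the wild-type livers, and the difference was -0.19 (SE 0.15, from the fit over all probe sets).

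Across the 7 genes, 4 differences were above 0 and 3 under 0, where 45.4% of all tested genes were above 0. The groups did not overlap in 1 gene that was higher (Cyp4a31) and 2 that were lower (Cyp4a12a and Cyp4v3), where 9.74% of all tested genes did not overlap (4.27% higher and 5.48% lower). These counts describe genes selected on this difference, and nothing is read from them. All 7 genes passed the limit on low values, Cyp4a31 only through the knockout livers.

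**Figure D2:**
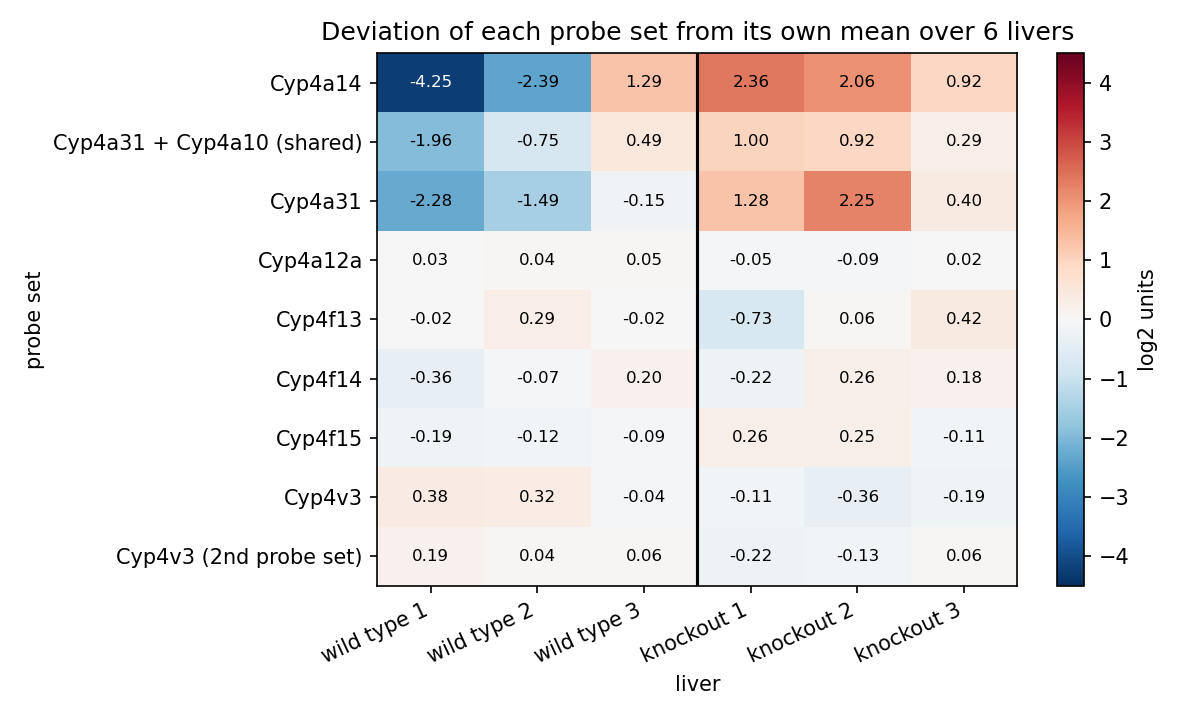
Deviation of each probe set (rows) from its own mean over the 6 livers (columns), in log2 units, blue below and red above the mean; the black line separates wild-type from knockout livers. The Cyp4a14, Cyp4a10 and Cyp4a31 rows are blue in wild-type livers 1 and 2 and red in the knockout livers, while Cyp4a12a stays near 0.

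Over the 6 arrays, Cyp4a14 had a Pearson correlation of 0.99 with the probe set shared by Cyp4a10 and Cyp4a31 and of 0.93 with Cyp4a31. Its correlation with Cyp4v3 was -0.92, with Cyp4f15 0.75, with Cyp4f14 0.63, with Cyp4f13 -0.34 and with Cyp4a12a -0.57. Cyp4f15 and the shared probe set had the same rank order over the livers as Cyp4a14 (Spearman 1). These values describe 6 arrays in 2 groups that share their normalization, and the probe sets of Cyp4a10 and Cyp4a31 may share transcripts. In 5 of the 7 genes wild-type liver 3 was nearer to the knockout mean than both other wild-type livers were. The share of all tested genes with this order was not counted, so nothing is read from it.

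Outside the family, the 3 tested genes most like Cyp4a14 over the 6 arrays were Ube2t (Pearson r = 0.991), Klhl21 (0.990) and Trappc5 (0.990). Ube2t, a ubiquitin-conjugating enzyme of DNA repair, was at 3.89, 4.35 and 4.83 in wild-type and 5.02, 5.03 and 4.86 in knockout livers. The shared Cyp4a10 and Cyp4a31 signal was most like Papss2, a sulfate donor synthase (0.995), Ube2t (0.995) and Gamt, an enzyme of creatine synthesis (0.995). Their ranges were much narrower than those of the Cyp4a genes: Papss2 lay between 10.05 and 11.04. Correlations over 0.9 with Cyp4a14 were reached by 247 tested genes. Those most like Cyp4a12a were Treh, Nacc2 and Slc10a1 (0.993, 0.992 and 0.992), those most like Cyp4f14 were Tomm40, Wrnip1 and Chd4 (0.973, 0.972 and 0.970), and those most like Cyp4v3 were Etaa1, Hrg and Bmi1 (0.989, 0.984 and 0.983).

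Of the other genes of the Cyp4 family, 3 had a probe set of their own. Cyp4f16, on chromosome 17, was at 5.84, 5.78 and 5.86 in wild-type livers 1 to 3 and at 6.05, 6.49 and 6.73 in knockout livers 1 to 3. Every knockout liver was above every wild-type liver, and the difference of 0.60 (SE 0.22) did not pass (limma adjusted p = 0.76). Another Cyp4f16 probe set, under the limit of 4 on average, differed by 0.51 with overlapping groups, and one shared with Cyp4f37 by 0.70, also overlapping. Cyp4b1, which lies beside the Cyp4a genes, differed by -0.16 (SE 0.20, adjusted p = 0.872). Cyp4f18 was at 2.78 to 3.14 in all livers.

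The nearest tested genes around the clusters were compared by their place in the RefSeq gene order of GRCm38.p6. On chromosome 4 the Cyp4a genes lie between Pdzk1ip1, a small membrane protein gene (difference 0.79, SE 0.34, limma adjusted p = 0.772), and Efcab14 (0.36, SE 0.26, adjusted p = 0.804). On chromosome 17, Cyp4f15 lies between Pglyrp2 (-0.073, SE 0.31) and Zfp871 (-0.068, SE 0.24), and Cyp4f13 and Cyp4f14 lie between Zfp871 and Zfp472 (-0.52, SE 0.24). On chromosome 8, Cyp4v3 is flanked by Klkb1, the plasma prekallikrein gene (-0.035, SE 0.19), and Tlr3 (-0.033, SE 0.18). Limma called 0 of these 7 neighbours, and 1 (Pdzk1ip1) had an unadjusted p under 0.05, against 6.46% of all tested genes.

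Other PPARA-responsive genes differed far less than Cyp4a14. Since Cyp4a14 was chosen by this difference and the list was not, nothing is read from that contrast. Of 60 listed genes outside the family, 50 were tested; 30 differences were above 0 and 20 under 0, and their median of 0.045 stood beside a median of -0.032 over all tested genes. Without wild-type liver 1 the median of the list was -0.032. Limma called 0 higher and 0 lower, with 7 higher and 0 lower genes below an unadjusted p of 0.05, against 6.46% of all tested genes (3.04% higher and 3.42% lower). At an adjusted p under 0.05 limma called 0.024% of all tested genes, all of them lower. The groups did not overlap in 3 higher genes (Vnn1, Angptl4 and Pex11a) and 1 lower gene (Acadm). Over all tested genes, 9.74% did not overlap (4.27% higher and 5.48% lower). Pex11a and Acadm were chosen after their values were seen.

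Vnn1, a pantetheinase that is strongly induced through PPARA, was at 7.04, 8.79 and 9.43 in wild-type livers 1 to 3 and at 10.02, 9.93 and 9.60 in knockout livers 1 to 3. Its order over the livers resembled that of Cyp4a14 (Pearson r = 0.95 over 6 arrays). This was the highest correlation among the 50 tested genes of the list, of which 35 correlated above 0. Of all tested genes outside the Cyp4 family, 3760 did. Correlations over 0.8 were reached by 12% of the list and by 7.24% of all tested genes outside the Cyp4 family. Cyp4a14 was chosen by its difference between the same 2 groups. Genes that differ in that direction therefore tend to correlate with it, and nothing is read from these shares. Vnn1 differed by 1.43 (SE 0.52, limma adjusted p = 0.76). Angptl4, a secreted inhibitor of lipoprotein lipase, was at 8.53, 10.37 and 9.59 in wild-type and 10.67, 10.53 and 10.47 in knockout livers, a difference of 1.06 (SE 0.40, adjusted p = 0.763). Pex11a, a peroxisome division gene, differed by 0.53 (SE 0.20), but by -0.14 on another bright probe set. Acot1, a cytosolic acyl-CoA thioesterase, differed by 0.45 (SE 0.25) with overlapping groups.

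Of the other genes of this list, 6 that are described here differed by less than their standard errors. Ehhadh, the peroxisomal bifunctional enzyme, differed by 0.046 (SE 0.22) and the peroxisomal thiolase gene Acaa1b by -0.12 (SE 0.20). Cpt1a, the gate of mitochondrial fatty acid import, differed by 0.15 (SE 0.25) and the pyruvate dehydrogenase kinase gene Pdk4 by 0.022 (SE 0.24). The lipid droplet gene Plin2 differed by -0.20 (SE 0.26). Cd36, which takes up fatty acids, differed by 0.047 (SE 0.25), with 0.56 and 0.58 on its other probe sets. For these 6 genes the adjusted p from limma lay between 0.879 (Plin2) and 0.989 (Pdk4).

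Fgf21 and Acot3, also PPARA targets, were under the limit of 4 on average and were not tested. The hormone gene Fgf21 was at 3.24, 2.92 and 3.46 in wild-type and 4.17, 4.53 and 3.96 in knockout livers. The peroxisomal thioesterase gene Acot3 was at 2.71, 2.97 and 3.88 in wild-type and 4.96, 4.67 and 3.96 in knockout livers. In both, every knockout liver lay above every wild-type liver, at values near the lower end of the scale.

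**Figure D3:**
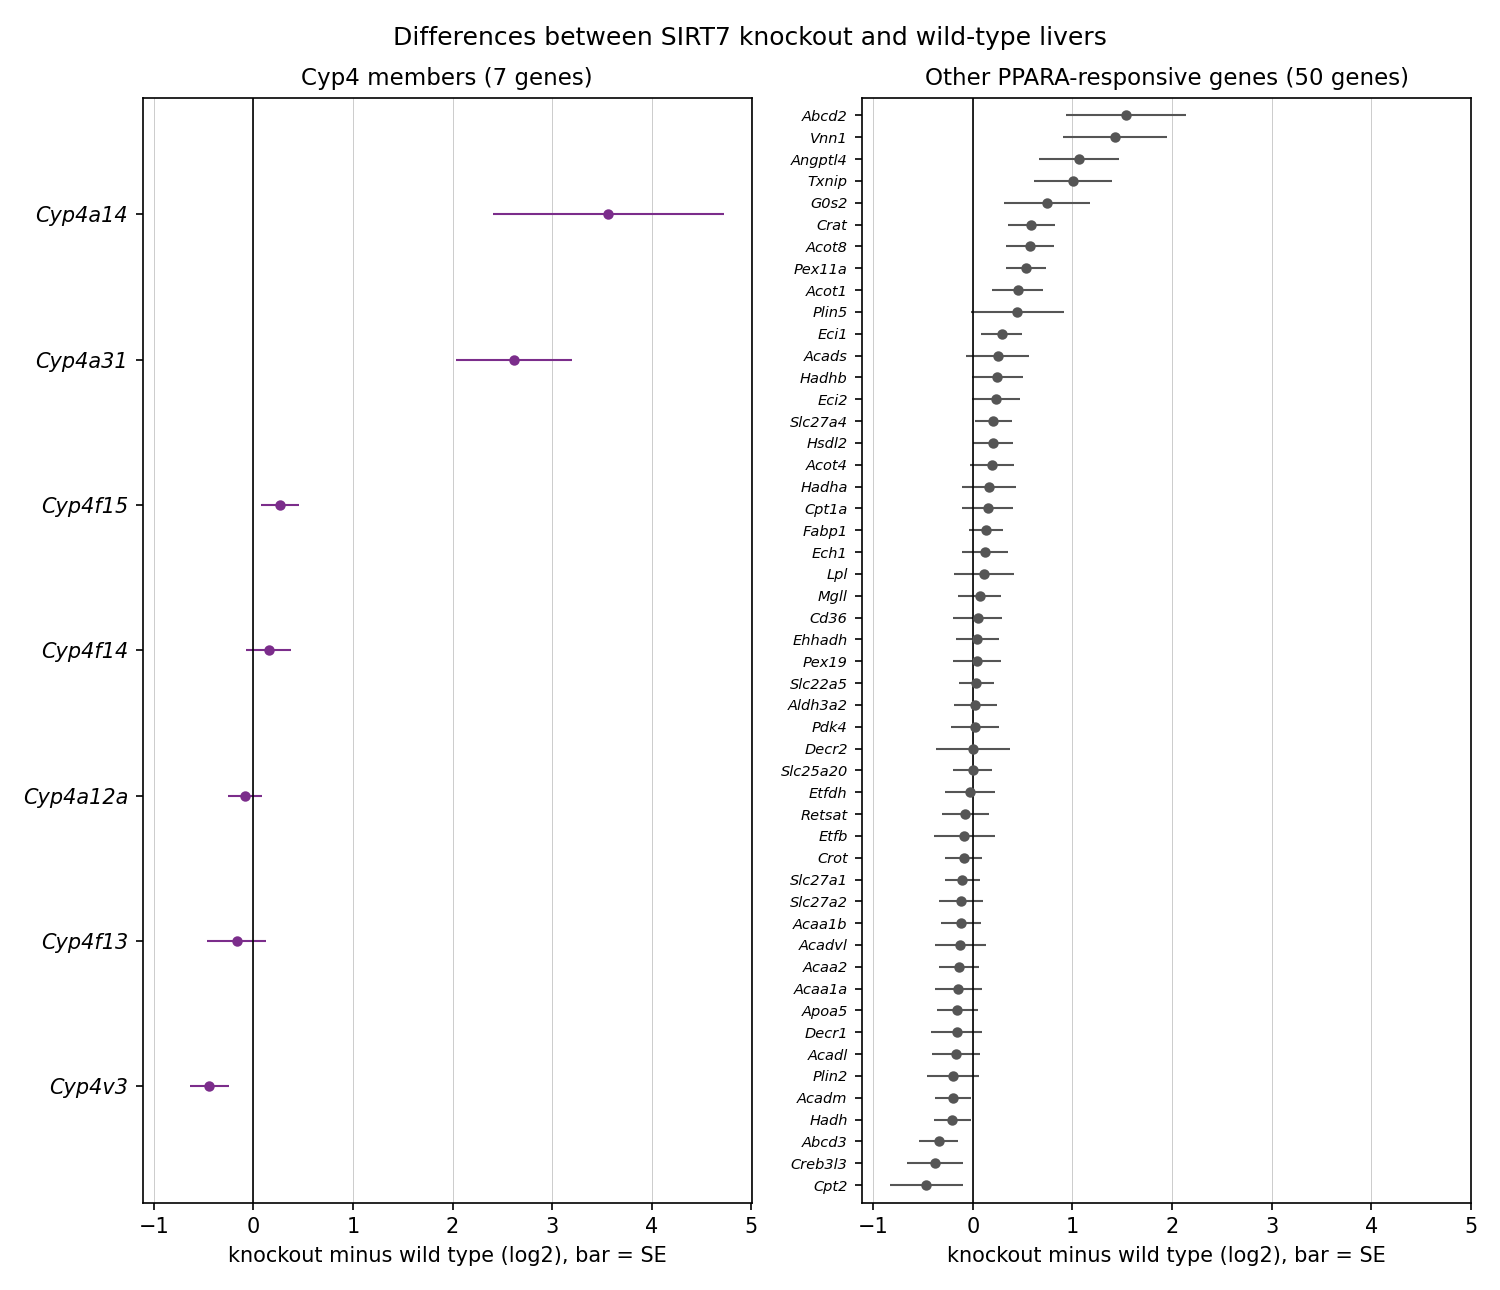
Difference between knockout and wild-type livers (horizontal axis, log2 units, 3 livers per group) of the 7 member genes (left) and of 50 other PPARA-responsive genes (right); points are differences and bars are standard errors. Cyp4a14 (3.57) and Cyp4a31 (2.62) lie to the right of all 50 other genes, of which Abcd2 has the highest value (1.54). The 7 members were selected on this difference, and Cyp4a31 passed the limit of 4 only through the knockout livers.

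The receptor, its partner and their coactivators were compared next. Ppara was at 7.30, 7.29 and 7.80 in wild-type livers 1 to 3 and at 8.05, 7.69 and 7.99 in knockout livers 1 to 3. Only wild-type liver 3 reached the knockout range, and the difference was 0.44 (SE 0.22, limma adjusted p = 0.775). Rxra, its DNA-binding partner, differed by 0.006 (SE 0.22, adjusted p = 0.996). The coactivator gene Ppargc1a differed by 0.60 (SE 0.38, adjusted p = 0.796), and by 0.54 to 1.498 on its other probe sets. Of 10 tested genes of this group limma called 0, and 0 had an unadjusted p under 0.05, against 6.46% of all tested genes.

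The partners of omega oxidation, which feed electrons to the cytochromes or carry their products onward, had a median difference of -0.050 over 20 tested genes (9 above 0, 11 under 0). Limma called 0, against 1 higher and 0 lower at an unadjusted p under 0.05 (3.04% higher and 3.42% lower over all tested genes). Cyb5a, the electron carrier cytochrome b5, differed by -0.055 (SE 0.17) and its reductase Cyb5r3 by 0.12 (SE 0.19), with 0.24 and 1.23 on other probe sets above the limit. Aldh3a2, the fatty aldehyde dehydrogenase, differed by 0.023 (SE 0.22) and the alcohol dehydrogenase gene Adh4 by -0.044 (SE 0.20). Acot8, a peroxisomal thioesterase of dicarboxylic acids, had the smallest p of the list (0.575, SE 0.24, adjusted p = 0.772), followed by the peroxisomal transporter gene Abcd3 (-0.34, SE 0.20, adjusted p = 0.796).

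Enzymes of the eicosanoids on which Cyp4a and Cyp4f proteins act differed in both directions. Of 15 tested genes limma called 0, and the median difference was 0.065. At an unadjusted p under 0.05, 1 was higher and 0 lower, against 3.04% and 3.42% of all tested genes. Lta4h, which makes leukotriene B4, differed by 0.13 (SE 0.21) and Ephx2, the soluble epoxide hydrolase, by -0.076 (SE 0.17). The phospholipase gene Pla2g6 was higher in every knockout liver than in every wild-type liver, by 0.77 (SE 0.31, adjusted p = 0.769). Pla2g4a, the cytosolic phospholipase that releases arachidonic acid, was lower in every knockout liver (-0.49, SE 0.24, adjusted p = 0.775) and was singled out after its values were seen. Ptgr1, a reductase that inactivates leukotriene B4, differed by 1.11 (SE 0.51, adjusted p = 0.773) with overlapping groups.

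Since Cyp4a10 and Cyp4a14 respond to food intake, genes induced by fasting and by feeding are given beside them. The 14 tested fasting-induced genes had a median difference of 0.047. With 1 liver left out this median lay between -0.024 (without knockout liver 1) and 0.10. Limma called 0, against 2 higher and 0 lower at an unadjusted p under 0.05 (Angptl4, above, and Txnip, 1.01, SE 0.39). Over all tested genes 3.04% were higher and 3.42% lower at that p. Igfbp1, a hepatic fasting marker, differed by 0.092 (SE 0.23). The 16 tested feeding-induced genes had a median difference of 0.14, and limma called 0. Of these, 1 (Pnpla3, with a wild-type mean of 3.99) passed the limit of 4 only through the knockout livers. Over all 17 listed genes with a probe set, without that limit, the median was 0.15. At an unadjusted p under 0.05, 2 of the 16 tested genes were higher and 0 lower, against 3.04% and 3.42% of all tested genes. The 2 were Rgs16 (4.08, SE 0.76) and the fatty acid synthase gene Fasn (0.60, SE 0.22). The feeding state of the mice is not given in the labels.

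Genes that differ between male and female mouse livers had differences of opposite sign for the most part. Of 17 tested male-biased genes, 12 differences were under 0 and 5 above 0, with a median of -0.22. The 1 male-biased gene whose groups did not overlap, Mup3, was higher in every knockout liver (0.22), but differed by -0.16 on its other probe set. Over all tested genes, 9.74% did not overlap (4.27% higher and 5.48% lower). Of 7 tested female-biased genes, all 7 differences were above 0, with a median of 0.70, but 2 of them, with a wild-type mean under 4, passed the limit only through the knockout livers. Over all 14 of the 25 listed genes with a probe set, without that limit, 12 differences were above 0 and 2 under 0, with a median of 0.66. With a limit at a mean of 6, only 1 female-biased gene was left, with a difference of 0.70. Limma called 0 in either list. Below an unadjusted p of 0.05 lay 3 male-biased genes, all lower, and 3 female-biased genes, all higher, against 3.42% lower and 3.04% higher of all tested genes.

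Hsd3b5, a male-specific steroid dehydrogenase, was at 12.25, 12.43 and 11.98 in wild-type livers 1 to 3 and at 10.998, 11.67 and 12.01 in knockout livers 1 to 3, a difference of -0.66 (SE 0.28, limma adjusted p = 0.772). Elovl3, a fatty acid elongase, differed by -0.53 (SE 0.25, adjusted p = 0.773) and Cyp7b1, an oxysterol hydroxylase, by -0.48 (SE 0.27, adjusted p = 0.796). Cyp2d9 differed by -0.21 (SE 0.22) and the organic anion transporter gene Slco1a1 by 0.023 (SE 0.19). Gna14, a G protein subunit, had the smallest p of the list (-1.58, SE 0.49, adjusted p = 0.746).

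Among the female-biased genes, Cyp2b9 was at 2.17, 2.41 and 5.97 in wild-type livers 1 to 3 and at 7.50, 6.06 and 2.89 in knockout livers 1 to 3. Wild-type replicate 3 was thus high and knockout liver 3 low, and the difference of 1.97 had a standard error of 1.26 (adjusted p = 0.796). With a wild-type mean of 3.52, Cyp2b9 was 1 of the 2 that passed the limit of 4 only through the knockout livers. Prom1, a membrane glycoprotein gene, differed by 0.62 (SE 0.18, adjusted p = 0.746) without overlap, and Tox, a nuclear HMG-box protein gene, by 1.32 (SE 0.48, adjusted p = 0.76). The median deviation of the 7 genes was -0.99, -0.63 and -0.24 in wild-type livers 1 to 3 and 0.75, 1.21 and -0.50 in knockout livers 1 to 3. Knockout replicate 3, which had the lowest Cyp4a14 and Cyp4a31 values of the knockout livers, lay here within the wild-type range. The part of these lists in the Cyp4a differences was not tested.

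**Figure D4:**
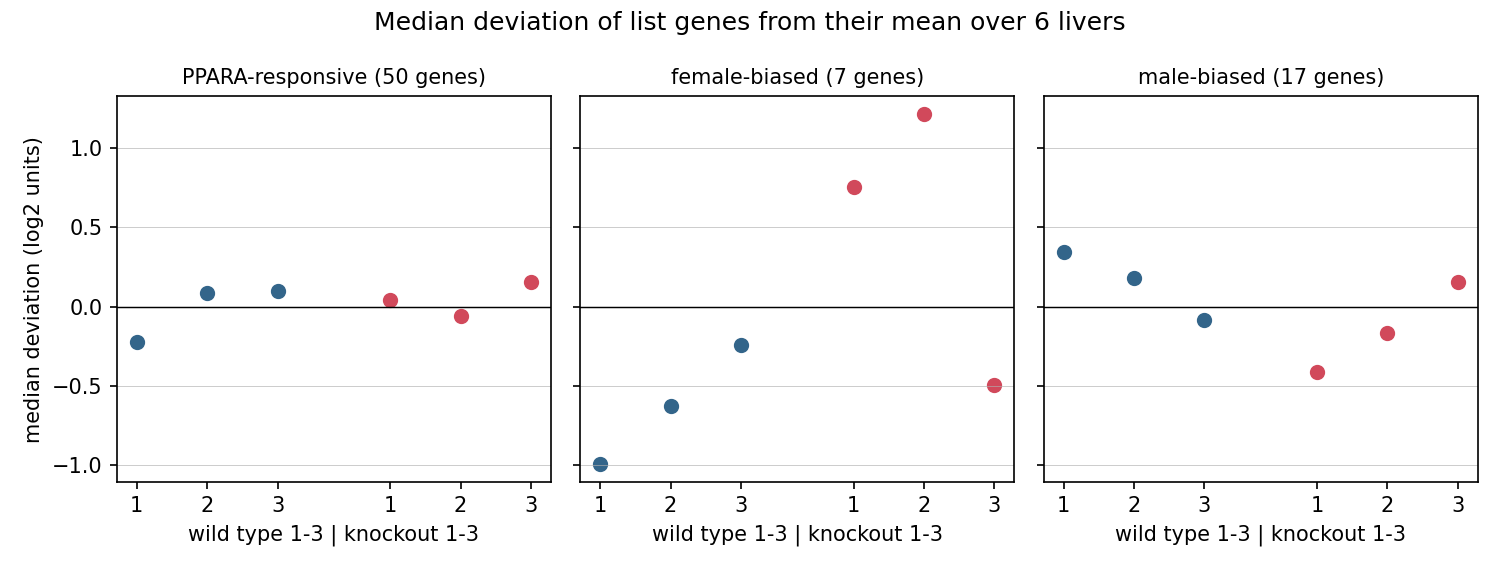
Median deviation (vertical axis, log2 units) of the genes of 3 lists from their own means over the 6 livers, in wild-type livers 1 to 3 (blue) and knockout livers 1 to 3 (red). The 50 PPARA-responsive genes lie between -0.22 and 0.15 in all livers, the 7 female-biased genes between -0.99 and 1.21, and the 17 male-biased genes between -0.41 and 0.34.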

How the data were processed

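The authors deposited 1 log2 expression value per probe set and array, and the submitters' processing notes name GCRMA 2.20.0 and R 2.11.1. The log2 scale was read from the range of 0.841 to 13.969. No source used here gives the GCRMA settings. Of 22626 probe sets, 20380 had 1 gene symbol in the platform annotation, 691 had more than 1, and 1555 were without a symbol or unlisted. For each gene the probe set of highest mean over 6 arrays was used, and genes with a mean under 4 were left out, which left 8343.

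The genotypes were compared in R 4.3.3 by limma 3.58.1 (functions lmFit and eBayes, 2-sided, no further normalization, no replicate block). A call needed an adjusted p (Benjamini-Hochberg, over all tested genes) under 0.05. Residual degrees of freedom were 4 and prior degrees of freedom 4.6. Errors of differences are moderated standard errors. The fit was tested on simulated data. For arrays, their number limits the precision.

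The members and the gene lists were chosen with earlier results of these data known. Named genes are the members, other Cyp4 genes, fixed names from each list, the 2 members of each list with the smallest p, the 3 genes most correlated with Cyp4a14, Cyp4a12a, Cyp4f14, Cyp4v3 and the shared probe set (which stood in for Cyp4a10), and nearest neighbours. Alternatives changed the filter, probe sets, normalization, array weights, variance prior, block and arrays.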

Additional observations from a re-analysis of the deposited data

How the results depend on the processing

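Of 345 values recomputed under 14 alternatives, 317 stayed within the spread between replicates (for counts, within 1.5 times) and 28 did not. Some of the 317 could not change, since the filter, variance prior and block leave the difference of a single gene as it was. The differences of Cyp4a14, Cyp4a31 and the probe set shared with Cyp4a10 stayed above 0 under every alternative that gave a value. Each rests on 1 probe set, so only normalization, array weights and left-out livers could move these differences. Without 1 liver they lay between 2.33 and 5.10, 2.13 and 3.20, and 0.87 and 2.09. For Cyp4a14 the spread between replicates was 2.06, so even 2.33 and 5.10 counted as within it. With a limit at a mean of 6 Cyp4a31 was not tested. The number of genes called was 1 with the mean of probe sets and lay between 1 (without knockout replicate 2 or 3) and 38 (without wild-type replicate 3) without 1 liver. It was 7 without wild-type replicate 2 and 5 without knockout replicate 1.

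Array weights, which gave knockout replicate 2 a weight of 6.12 and knockout replicate 3 one of 0.31, called 1748 genes (659 higher, 1089 lower), 21% of those tested. Weights this uneven with 3 livers per group make the calls unreliable. They included 7 of 50 PPARA-responsive genes, 1 of 2 other Cyp4 genes, 5 of 20 partners of omega oxidation, 2 of 15 eicosanoid enzymes, 3 of 14 fasting-induced, 4 of 16 feeding-induced, 6 of 17 male-biased and 5 of 7 female-biased genes. Under these weights Cyp4a12a differed by -0.13 and Cyp4v3 by -0.63. The medians were then -0.010 for PPARA-responsive genes, -0.064 for eicosanoid enzymes, -0.069 for fasting-induced, -0.20 for feeding-induced and 2.23 for female-biased genes.

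The omega oxidation median turned to 0.035 with each probe set on its own and to 0.027 under quantile normalization. The median of other Cyp4 genes was 0.60 with a limit at a mean of 6, where 1 gene was left. Without 1 liver, the eicosanoid median lay between -0.10 and 0.11, the female-biased median between 0.63 and 1.47 (the latter without wild-type replicate 3) and the count of feeding-induced genes called between 0 and 1 (without wild-type replicate 2). The cause was not tested.

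Replicate numbers are shared between the groups only as numbers. Deviations of same-numbered samples correlated at -0.089, -0.091 and -0.19, and with the replicate number as a block limma called 2 genes, as without it. With 3 arrays per group and no detection calls, differences among values near the lower end of the scale, such as those of Cyp4a31 in wild-type livers, are the least certain.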

Other observations

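By the range over the wild-type livers, Cyp4a14 stood among 8 genes that were listed after their values were seen. Ugt2b38, a glucuronosyltransferase gene, had the widest range and was at 9.27, 4.32 and 2.30 in wild-type replicates 1 to 3 and at 9.15, 8.12 and 8.20 in knockout replicates 1 to 3. Hao2, a peroxisomal hydroxyacid oxidase gene, was at 2.66, 2.68 and 8.08 in wild-type livers, with only wild-type replicate 3 high, and at 4.91, 5.81 and 3.47 in knockout livers. Defb1, a defensin gene, was low only in wild-type replicate 1 (4.37, against 9.36 and 9.83), and was at 10.57, 10.15 and 10.35 in knockout livers. The mitosis genes Hmmr and Cdc20 were lowest in wild-type replicate 2 (2.89 and 2.66). Clec2h, a C-type lectin gene, was at 8.28, 9.31 and 4.17 in wild-type and 1.66, 2.97 and 2.36 in knockout livers. Dct, a pigment enzyme gene, was at 7.84, 4.83 and 9.62 in wild-type and 3.29, 2.41 and 2.33 in knockout livers.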
